A study of Picea abies with 36 samples.

Results

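Hypocotyls of Norway spruce (Picea abies) treated with a cytokinin were set against hypocotyls treated with an auxin, 10 days after application. The comparison rests on 6 of the 36 libraries of the series, which were picked by treatment and day: 3 libraries from BAP hypocotyls and 3 from IAA hypocotyls. The comparison itself was chosen with earlier results of these data known. The BAP group received lanolin with 135 mM BAP (6-benzylaminopurine, a synthetic cytokinin) on the middle of the hypocotyl, the stem between root and cotyledons, and the IAA group received lanolin with 50 mM IAA (indole-3-acetic acid, an auxin that plants make themselves). Both groups were seedlings of about 2 weeks from a phytotron, treated a single time. BAP and IAA hypocotyls of 5 and 15 days (3 libraries each) are used for the course over time, and hypocotyls given both hormones at the same concentrations (BAP+IAA) or a Mock treatment for levels beside the comparison. The concentrations differ between the hormones, so hormone and dose cannot be told apart. The labels number the 3 replicates of a group without saying whether they came from different plants, so each p-value speaks of the spread among the sequenced libraries, and that spread may be technical.

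Auxin and cytokinin are the plant hormones whose balance sets where plant cells divide and what organs they form. Auxin releases the transcription of its target genes by causing the breakdown of Aux/IAA repressor proteins, and it is known for driving cell expansion, wood formation from the cambium and the formation of adventitious roots on stems. Cytokinin acts through membrane-bound histidine kinases and a phosphate relay to response regulators, and it is known for promoting cell division and shoot buds and for opposing root formation. The deposited table lists gene models by identifier without gene names, and no annotation was used here, so the hypocotyl label could not be set against marker genes and the models below are described by level, size of difference and course over time. In bulk tissue, fewer cells of a type and less RNA per cell cannot be told apart.

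The 6 libraries held 12919095 to 17863524 reads in gene models. Replicates correlated at r = 0.961 to 0.974 across genes, and a BAP library with an IAA library at r = 0.838 to 0.868. Genes are not independent replicates, so these values only describe the libraries. The first principal component of the 6 libraries held 73.3% of their variance and parted the hormones, with BAP libraries between 111.7 and 134.9 and IAA libraries between -127.8 and -120.2. The SD of log2 CPM (a model's reads as a share of the library's scaled read total) between replicates had a median of 0.24 over models with BAP and 0.23 with IAA, while the absolute difference between the hormones' means had a median of 0.42. Counts of replicates differed by more than sampling noise, at 8.49 to 15.9 times the variance of random sampling, so no library was a copy of another.

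At 10 days the 2 hormones left the hypocotyl with different levels of 13833 of 38239 tested gene models, or 36.2% (edgeR's quasi-likelihood test, Benjamini-Hochberg adjusted p below 0.05). Of these, 6114 models (16% of those tested) were higher with BAP and 7719 (20.2%) were lower with BAP, that is, higher with IAA. Without a scaling for library composition the split turned round, to 9099 higher and 6032 lower with BAP, and the median log2 difference of all models was 0.15 in place of -0.0019. For larger differences the split did not turn. A difference of more than 2-fold was itself called at 3355 models (8.77%), of which 880 were higher with BAP (2.3%) and 2475 lower (6.47%), by edgeR's test against a fold limit. Without the composition scaling these were 1142 and 2187.

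Differences with more in auxin-treated tissue were also the larger ones. The median fold among called models was 1.8 for those higher with BAP and 2.33 for those lower with BAP. A called difference of at least 2-fold was seen at 2588 models higher and 4438 lower with BAP (6.77% and 11.6% of those tested), and one of at least 4-fold at 947 models higher and 2497 lower with BAP (2.48% and 6.53% of those tested). At least 16-fold higher with BAP were 148 models (0.387%), and at least 16-fold lower were 948 (2.48%). Beyond 64-fold the counts were 17 and 355 (0.0445% and 0.928%). Folds here are ratios of pooled group levels in which a group under 3 reads was set to 3 reads, so a fold against a group without reads is set by this floor.

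**Figure D1:**
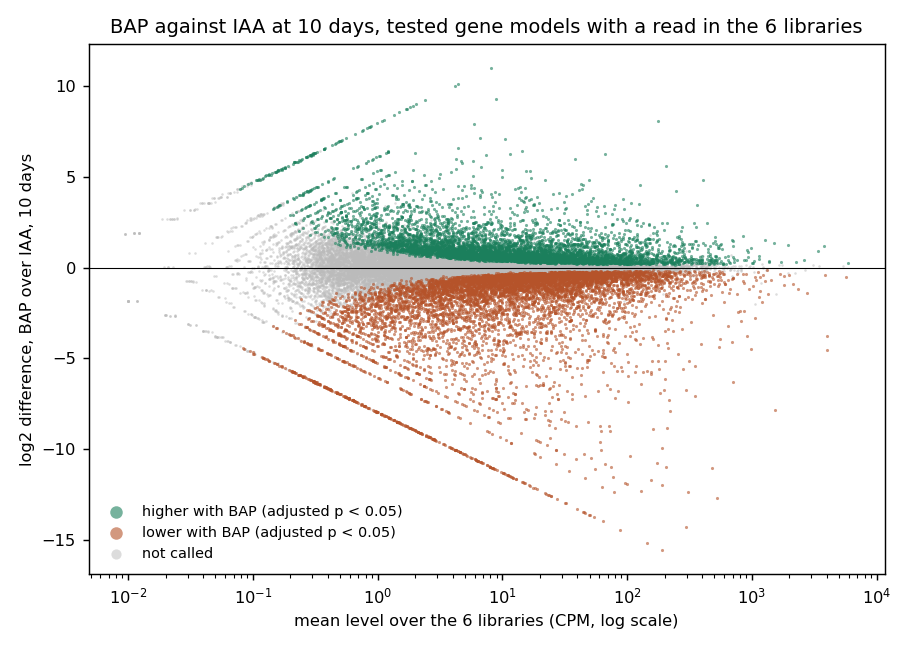
Log2 difference of BAP over IAA at 10 days (vertical axis) against the mean level over the 6 libraries in CPM (horizontal log axis), 1 point for each tested gene model with a read in these libraries, coloured by direction where the adjusted p is below 0.05. The straight lower and upper edges are models with no read in one hormone, whose fitted value is set by the prior count. Large differences lie mostly below 0, where 948 models are at least 16-fold lower with BAP, against 148 at least 16-fold higher.

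The excess on the auxin side was largest in the scarcest group of models, but it did not fall steadily with level. Tested models were split into 10 groups of about equal size by their mean level over all 36 libraries. In the scarcest group, up to 0.643 CPM, 6.3% of the models were higher and 16% lower with BAP. Group 3 from the scarce end had 13.1% higher and 14.1% lower with BAP, and group 9 had 21.1% and 28.5%. In the most abundant group, from 53.4 CPM up, 27.2% were higher and 29.1% lower with BAP. A scarce model could pass the filter on low counts only through the libraries where it was read most. The part of this in the excess was not tested. Of the models at least 16-fold lower with BAP, 197 stood in the scarcest group, 159 in group 2 and 50 in the most abundant one. For those at least 16-fold higher with BAP these numbers were 18, 37 and 5, so that set was largest in group 2.

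Groups rarely overlapped at called models, which is a description, since the same 6 libraries gave the differences that were called. All 3 BAP libraries lay above all 3 IAA libraries at 5685 of the 6114 models called higher (93%), and below them at 7385 of the 7719 called lower (95.7%). Over all tested models the BAP libraries lay wholly above at 21.1% and wholly below at 24.7%. Among the 148 models at least 16-fold higher with BAP, 6 had overlapping libraries and 7 had over 80% of their summed BAP level in a single library. Among the 948 at least 16-fold lower, these numbers were 8 and 7 (the second for IAA).

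Some models were read with a single one of the hormones. Called models without a read in any IAA library at 10 days numbered 97, or 1.59% of those called higher with BAP. Called models without a read in any BAP library numbered 367, or 4.75% of those called lower. Uncalled models without a read were not counted. A model could pass the filter on low counts through the other hormone's libraries alone, so both counts only describe these lists. The 97 models had a median of 25 reads over the 3 BAP libraries and at most 717, and 13 of them reached 100 reads. The 367 models had a median of 113 reads over the 3 IAA libraries and at most 18143, and 195 of them reached 100 reads. A count of 0 in a library allowed for up to 0.17 to 0.222 CPM (3 counts), which covers counting error only.

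Many of these models also lacked reads with the same hormone on the other days. Of the 367 models without a read with BAP at 10 days, 254 had none with BAP at 5 days, 235 none at 15 days and 180 none on any of the 3 days. Of the 97 models without a read with IAA at 10 days, 43 had none with IAA at 5 days, 33 none at 15 days and 21 none on any day. At 10 days 118 of the 367 models had no read in the BAP+IAA libraries and 226 none in Mock, with medians of 3 reads in BAP+IAA and 0 in Mock over 3 libraries. For the 97 models these numbers were 11 and 20, with medians of 7 and 10 reads. The matching shares over all tested models were not counted.

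The models on each side held a large part of all reads. Models called higher with BAP took 34.6, 32.8 and 31.1% of the reads in the 3 BAP libraries, against 18.1, 18.2 and 17.3% in the 3 IAA libraries. Models called lower with BAP took 20.7, 20.6 and 22.2% in BAP libraries, against 40.8, 39.7 and 40.9% in IAA libraries. These shares describe models that were chosen on the same libraries and were not tested. In Mock libraries of 10 days the first set held 29.6 ± 0.638% and the second 26.9 ± 0.406% (SD, n = 3).

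The reads of both 16-fold sets were then followed over all treatments and days. The BAP and IAA libraries of 10 days chose the sets, so their values are a description, while the other libraries entered the choice only through the shared scaling, filter and spread. The 948 models at least 16-fold lower with BAP held 0.12, 0.108 and 0.162% of the reads in the BAP libraries of 10 days and 5.55, 4.82 and 5.14% in the IAA libraries. In BAP+IAA libraries of that day they held 0.58 ± 0.0527%, and in Mock 0.273 ± 0.0336% (SD, n = 3). No BAP+IAA or Mock library reached 1%. At 15 days the shares were 0.176 ± 0.0362% with BAP, 4.31 ± 0.222% with IAA, 0.536 ± 0.145% with BAP+IAA and 0.332 ± 0.00606% in Mock, and at 5 days they were 0.135 ± 0.028, 1.91 ± 0.232, 0.512 ± 0.0543 and 0.25 ± 0.0227% (SD, n = 3).

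The 148 models at least 16-fold higher with BAP made up a far smaller share, 0.508, 0.377 and 0.372% of the reads in the BAP libraries of 10 days, against 0.0117, 0.0128 and 0.0131% in the IAA libraries. Mock lay between the hormones here, at 0.114 ± 0.0193%, and so did BAP+IAA, at 0.218 ± 0.0261% (SD, n = 3). At 15 days the shares were 0.356 ± 0.0454% with BAP, 0.0245 ± 0.00312% with IAA, 0.248 ± 0.0295% with BAP+IAA and 0.111 ± 0.0241% in Mock (SD, n = 3). At 5 days they were 0.255 ± 0.0376, 0.022 ± 0.003, 0.108 ± 0.0102 and 0.12 ± 0.0144% (SD, n = 3). The BAP+IAA and Mock libraries of 5 days overlapped.

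**Figure D2:**
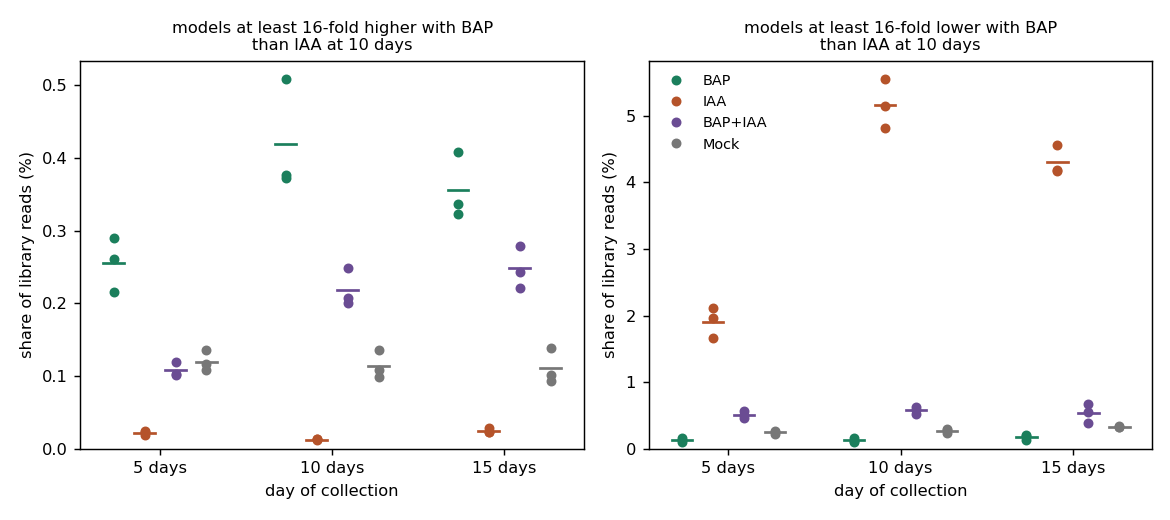
Share of each library's reads in % (vertical axis) held by the models at least 16-fold higher with BAP than with IAA at 10 days (left) and at least 16-fold lower (right), by day of collection, 1 point for each library and a bar at the mean of 3. On the right the IAA libraries of 10 days lie between 4.82 and 5.55% and no library of another treatment reaches 1%, while on the left Mock and BAP+IAA lie between BAP and IAA at 10 days.

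Median levels per model gave the same order of treatments for the 948 models. For the 148 models the order of Mock and BAP+IAA depended on how the median was taken. Over the 948 models the median pooled level at 10 days was 0.0867 CPM with BAP, 9.2 CPM with IAA, 0.374 CPM with BAP+IAA and 0.134 CPM in Mock. Over the 148 models it was 3.7 CPM with BAP, 0.105 CPM with IAA, 1.15 CPM with BAP+IAA and 1.3 CPM in Mock. Medians taken in each library averaged 1.19 ± 0.352 CPM with BAP+IAA and 1.09 ± 0.06 CPM in Mock (SD, n = 3), and these libraries overlapped. On the log scale the Mock level was nearer to BAP than to IAA at 827 of the 948 models (87.2%), and at 77 of the 148 (52%). Over all tested models it was nearer to BAP at 55.9%. The BAP+IAA level was nearer to BAP at 788 of the 948 (83.1%) and at 90 of the 148 (60.8%), beside 55.9% of all tested models.

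Among models lower with BAP, the Mock level was split more evenly between the hormones where the difference was smaller, and among models higher with BAP it was not. At 10 days the 1941 models 2- to 4-fold lower with BAP had a median of 4.51 CPM with BAP and 11.8 CPM with IAA, and of 5.89 CPM with BAP+IAA and 7.25 CPM in Mock. Mock was nearer to BAP at 51.4% of them. The 1641 models 2- to 4-fold higher with BAP had a median of 6.64 CPM with BAP and 2.67 CPM with IAA, and of 4.81 CPM with BAP+IAA and 5.57 CPM in Mock. Mock was nearer to BAP at 69.5% of those, a larger share than the 52% of the 16-fold set.

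**Figure D3:**
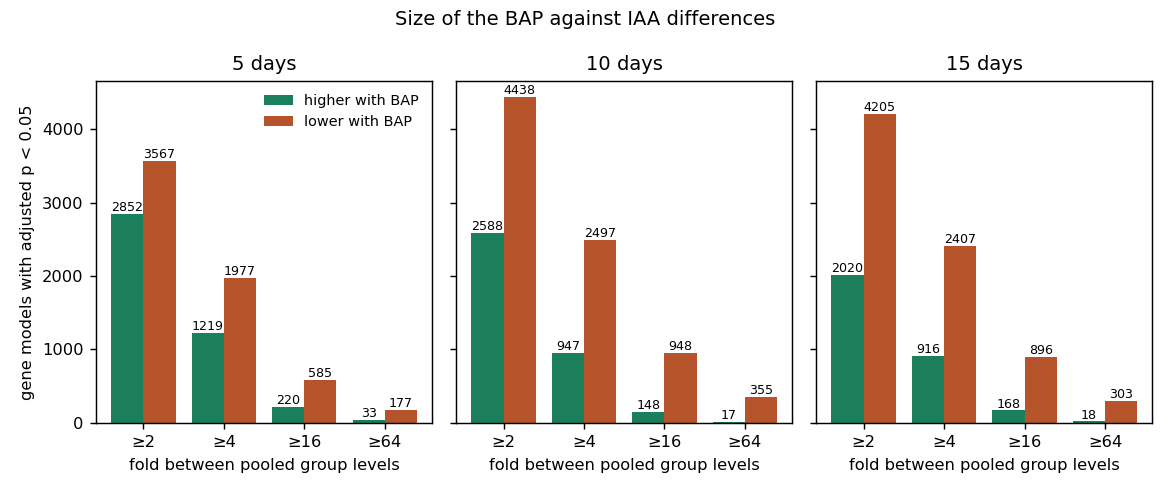
Number of gene models with an adjusted p below 0.05 (vertical axis) and a ratio of pooled BAP and IAA levels of at least 2, 4, 16 or 64 (horizontal axis), for models higher and lower with BAP at 5, 10 and 15 days. Bars for models lower with BAP exceed those for models higher with BAP in every class and on each day, and at 10 days the classes of at least 16-fold hold 148 and 948 models.

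Single abundant models differed by a sizeable share of the library. In each direction, the 10 models with the largest excess in CPM over the other hormone were taken from called models without overlap of libraries. Those with more in BAP made up 3.57, 3 and 2.72% of the reads in BAP libraries, against 1.59, 1.61 and 1.36% in IAA libraries. Among them, 1 differed by more than 4-fold. Mock lay above BAP at some of them (11380 against 5243 CPM at the first) and below it at others (139.7 against 780.5 CPM at 1 model). The 10 with more in IAA made up 0.922, 0.882 and 1.2% in BAP libraries, against 3.93, 3.71 and 3.56% in IAA libraries, and 6 of them differed by more than 4-fold. Among the 10 with more in IAA, the model with the third largest excess averaged 13.5 ± 1.29 CPM with BAP and 3063 ± 493 CPM with IAA (SD, n = 3), with 31.6 CPM in BAP+IAA and 18.9 CPM in Mock. The model with the second largest excess averaged 554 ± 292 CPM with BAP and 7441 ± 968 CPM with IAA (SD, n = 3), with 516 CPM in BAP+IAA and 46.1 CPM in Mock.

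Otherwise the most abundant transcripts were largely common to both treatments. The 100 models with the highest mean levels shared 63 between BAP and IAA, 63% of each list. Of the 137 models on either list, 47 were called higher with BAP, 55 lower and 35 were not called, with 21 and 30 beyond 2-fold. Among the most abundant of the 10 level groups 27.2% were called higher and 29.1% lower, and among all tested models 16% and 20.2%.

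The 100 most abundant models of each library held less of the reads with BAP, 15.3, 14.6 and 14.9%, than with IAA, 17, 16.1 and 16.1%. The means were 14.9 ± 0.341% and 16.4 ± 0.508% (SD, n = 3; exact permutation test, 2-sided p = 0.1, the smallest that 3 against 3 libraries allow). The BAP and IAA libraries did not overlap in this share. For the 10 most abundant models the means were 4.46 ± 0.0906% with BAP and 4.79 ± 0.297% with IAA (SD, n = 3), and the libraries overlapped (exact permutation test, 2-sided p = 0.2). Reduced to the reads of the smallest library, 40961 ± 299 models were expected to have a read with BAP and 41533 ± 284 with IAA (SD, n = 3; exact permutation test, 2-sided p = 0.1). The highest BAP library, at 41202 models, lay just below the lowest IAA library, at 41211. Counted with at least 5 reads the groups overlapped, at 35334 ± 144 models with BAP and 35784 ± 291 with IAA (SD, n = 3; exact permutation test, 2-sided p = 0.2), and they also overlapped without equal depth (exact permutation test, 2-sided p = 0.2).

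Of the models named by rule, those with the largest fold and the largest CPM difference in each direction, MA_17212g0010 had the largest fold in favour of BAP. Fold here is the ratio of pooled levels with a group under 3 reads set to 3 reads, 275 for this model, and by fitted log2 difference it was at rank 4 on its side. At 10 days it stood at 22.3, 14.3 and 16.5 CPM in the BAP libraries, against 0.0706, 0 and 0 CPM in the IAA libraries. The groups were 800 reads in BAP against a single read in IAA, in replicate 1 (edgeR adjusted p = 1.7e-10). Without the floor the ratio was 826, with a 95% counting interval from 148 to 32700. Such an interval covers the sampling of reads only and leaves out the spread between libraries. BAP+IAA libraries had 11.8, 8.29 and 6.32 CPM and Mock libraries 1.16, 0.495 and 2.38 CPM. The BAP libraries were the highest of the day, the BAP+IAA libraries came next without overlap, and the IAA libraries lay below each Mock library.

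MA_10431300g0020 had the largest CPM difference in favour of BAP. It stood at 6939, 4612 and 4179 CPM in BAP libraries and 2390, 2774 and 1694 CPM in IAA libraries, a log2 difference of 1.20 ± 0.21 (SE, edgeR adjusted p = 6.2e-05). In BAP+IAA it was at 3024, 2609 and 2913 CPM and in Mock at 10590, 10710 and 12830 CPM. All treated libraries lay below all Mock libraries, so the higher value with BAP was still a level under that of Mock. By 15 days the hormones overlapped, at 5229, 4106 and 4178 CPM with BAP and 2830, 4830 and 4369 CPM with IAA, and the difference was not called (log2 0.17 ± 0.21, SE, edgeR adjusted p = 0.6). The change of the difference between 10 and 15 days was not called either (log2 -1.03, edgeR adjusted p = 0.14).

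MA_88919g0010 had the largest fold in favour of IAA by the same measure, 9100, and was at rank 4 on its side by fitted log2 difference. It stood at 0.074, 0 and 0 CPM in BAP libraries and 534, 581 and 653 CPM in IAA libraries, which is 1 read, in replicate 1 of BAP, against 28196 reads. Without the floor the ratio was 27300 with a 95% counting interval from 4900 to 1080000 (edgeR adjusted p = 1.6e-07). This interval too leaves out the spread between libraries. BAP+IAA libraries had 0.618, 0.061 and 1.67 CPM and Mock libraries 0.155, 0.424 and 0.114 CPM. With IAA alone the level was thus above that of every other library of the day, and the other 3 treatments stayed under 2 CPM. At 15 days BAP had no read and IAA stood at 521, 246 and 222 CPM. That is 5260-fold higher against a floor of 3 reads over the BAP group, and the lower 95% counting limit was 4270. BAP+IAA then had 17.9, 0.208 and 0.289 CPM, most of it in replicate 1, with 293 of 300 reads.

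MA_10427345g0010 had the largest CPM difference in favour of IAA and was the source of 0.814, 0.661 and 0.7% of all reads in the IAA libraries of 10 days, against 0.0434, 0.0226 and 0.0401% in the BAP libraries. Its levels were 415, 212 and 382 CPM with BAP and 8639, 6937 and 7421 CPM with IAA, 23.3-fold lower with BAP from pooled levels (log2 -4.51 ± 0.40, SE, edgeR adjusted p = 2e-09). BAP+IAA libraries had 1086, 849 and 978 CPM and Mock libraries 289, 364 and 163 CPM. BAP and Mock overlapped, BAP+IAA lay above both, and IAA lay above BAP+IAA without overlap. At 5 and 15 days the log2 differences were -3.78 ± 0.39 and -3.80 ± 0.39 (SE, edgeR adjusted p = 2.5e-08 and 3.6e-08).

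**Figure D4:**
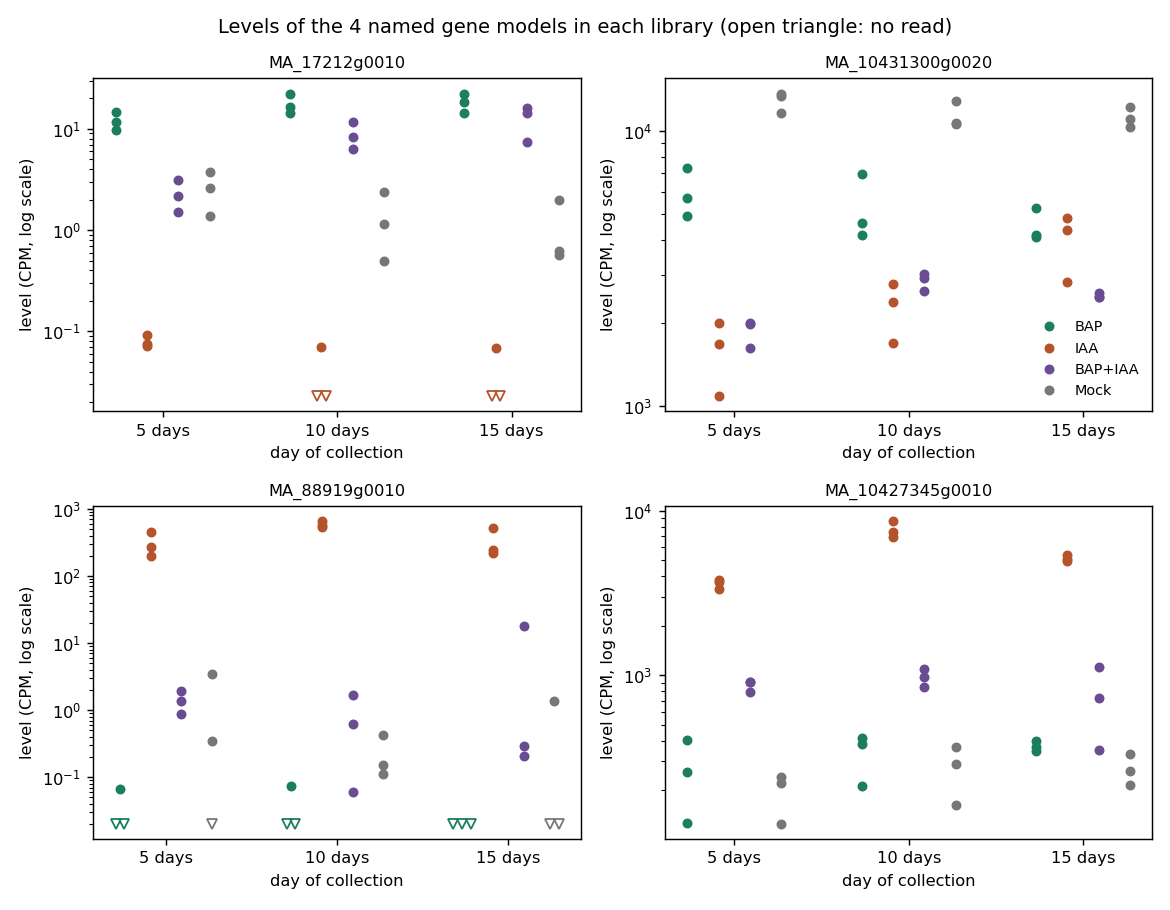
Level in CPM (vertical log axis) of the 4 named models in each library at 5, 10 and 15 days, 1 point for each library and an open triangle for a library with no read. At 10 days MA_17212g0010 and MA_10431300g0020 are higher with BAP than with IAA, MA_88919g0010 and MA_10427345g0010 are lower, and the hormones' points do not overlap in any of the 4.

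The difference between the hormones at 10 days was compared with that at 5 and 15 days, in the libraries of those days. Across the 38239 models, log2 differences correlated at r = 0.635 between 10 and 5 days and r = 0.843 between 10 and 15 days. At 5 days 13098 models were called (34.3%), and at 15 days 11245 (29.4%). Models with more in BAP numbered 6297 (16.5%) at 5 days, beside 6801 with less (17.8%). For 15 days the numbers with more and with less in BAP were 4725 (12.4%) and 6520 (17.1%). Of the 10-day list 53.2% was called in the same direction at 5 days and 60.1% at 15 days, which is 56.1% of the 5-day list and 73.9% of the 15-day list. Of the 38239 tested models, 1865 were called higher with BAP on all 3 days and 2866 lower. The overlap expected from the shares called on each day was not computed.

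Opposite directions were more frequent with the earlier day than with the later one. Of 7843 models called at both 5 and 10 days, 489 had opposite directions. Of those, 192 were higher with BAP at 10 days and lower at 5 days, and 297 were lower at 10 days and higher at 5 days. All 489 were also called in the test of the change itself. That test uses the same libraries and fit, so the choice of these models all but fixed its outcome. Of 8330 models called at both 10 and 15 days, 17 had opposite directions.

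The sets chosen at 10 days had smaller median folds on the other days, and a choice by fold itself favours the day on which it was made. The 948 models at least 16-fold lower with BAP at 10 days, where the choice was made, had a median fold of 43.8 on that day, 8.11 at 5 days and 30 at 15 days. At 15 days 903 of them (95.3%) were called in the same direction, where 17.1% of all tested models were called lower with BAP. At 5 days 620 (65.4%) were called lower, beside 17.8% of all tested models, and 6 higher. A change of the difference between 5 and 10 days towards more in IAA was called at 187 of them (19.7%), beside 6.72% of all tested models. The libraries of 10 days that chose the set also enter this change, so the share is a description only. For the 148 models on the cytokinin side the median folds were 11.8, 26.2 and 12.6 at 5, 10 and 15 days, with 116 (78.4%) called in the same direction at 5 days and 118 (79.7%) at 15 days. Of all tested models 16.5% and 12.4% were called higher with BAP on those days.

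**Figure D5:**
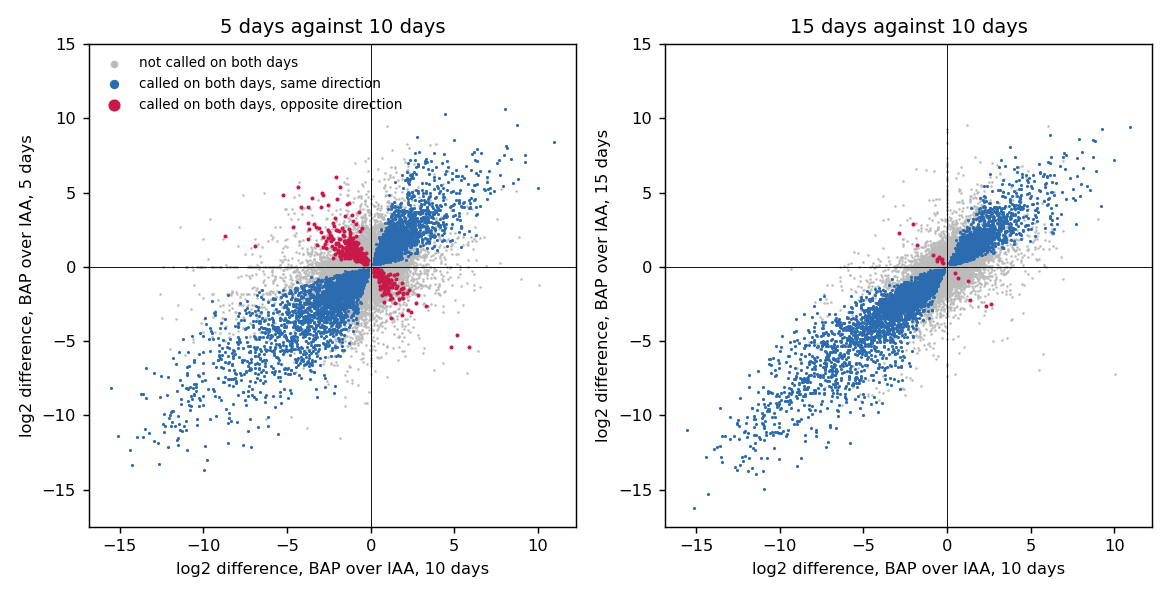
Log2 difference of BAP over IAA at 5 days (left) and 15 days (right) on the vertical axis against that at 10 days on the horizontal axis, 1 point for each tested model, coloured where both days have an adjusted p below 0.05. Points called in opposite directions number 489 on the left and 17 on the right.

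A change of the difference from 5 to 10 days was tested directly in the same model. It was called at 4467 models (11.7%), with the ratio of BAP to IAA larger at 10 days at 1897 (4.96%) and smaller at 2570 (6.72%). Among the 2570 models with a smaller ratio, the pooled level with BAP changed by a median log2 of -0.16 between 5 and 10 days and that with IAA by 1.17. Among the 1897 with a larger ratio, the medians were 0.14 with BAP and -0.84 with IAA. The IAA level moved more than the BAP level at 89.4% and 80.1% of these models, beside 63.9% of all tested models. These shares describe models chosen on the same libraries.

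A change from 10 to 15 days was called at 112 models (0.293%), with a larger ratio of BAP to IAA at 15 days at 73 (0.191%) and a smaller one at 39 (0.102%), and this count depended on single libraries. It was 29, 13 and 215 without replicate 1, 2 or 3 of BAP at 10 days, 2 without replicate 1 of IAA and 15 without replicate 3 of IAA, and without replicate 2 of IAA it was 84. An unadjusted p below 0.05 was found at 4388 of 38239 tested models, a cut-off that a share of unchanged models also passes. DESeq2 called 392 models after adjustment.

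Neighbouring models mostly differed in the same direction where both were called. The identifiers consist of a scaffold and a model number, and 2261 pairs of tested models were numbered consecutively on a scaffold. Both members were called at 460 pairs, of which 150 had both higher with BAP, 270 both lower and 40 opposite directions. A model called higher had a neighbour called higher in 41.8% of 718 cases, beside 16% of all tested models, and a model called lower had a neighbour called lower in 58.4% of 924 cases, beside 20.2%. No strand setting is given for the counting, and the part of shared reads or of genes split over 2 models in this was not tested.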

How the data were processed

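Raw read counts per gene model were deposited for 36 libraries in 12 groups of 3, as whole numbers with no normalisation by the authors. Per the submitters' processing notes, tools included Trimmomatic, STAR and HTSeq. Their versions, the build, the annotation and whether counting used strand were not given in the sources used here, so antisense or overlapping models or near-identical copies may share or lose reads. The table's columns give replicate, hormone and a collection number, read here as the order of the collection days.

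R 4.3.3 and edgeR 4.0.16 were used on the deposited counts. filterByExpr with 12 groups kept 38239 of 70736 models, with at least 99.89% of each library's reads. TMM factors were 1.047 to 1.069 for the BAP and 0.944 to 0.954 for the IAA libraries of 10 days. The quasi-likelihood fit took all 36 libraries as 12 groups, which left 24 residual degrees of freedom. Mock and BAP+IAA libraries entered the contrast only through scaling, filter and the shared estimate of spread. Tests were 2-sided with Benjamini-Hochberg adjustment over all 38239 models. SE values were derived from the F statistic, log2 CPM used a prior count of 2, and counting intervals were exact binomial at 95%. These intervals pool the reads of a group's libraries and leave out the spread between them. The fit was also run on simulated data in which far fewer models differed than were called here, and its outcome is not given here.

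With no gene names at hand, the rule named 2 models in each direction: adjusted p below 0.05, no overlap of the 3 BAP and 3 IAA libraries, a mean of at least 1 CPM over them, and the largest fold or the largest CPM difference. No gene list could be tested. The comparison and its lists were chosen with earlier results of these data known. Alternatives were RLE factors, library totals, no filter, DESeq2 1.42.0, 6 or 18 libraries, a replicate block and leaving out each library.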

Additional observations from a re-analysis of the deposited data

Results flagged for a closer look

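The difference between BAP and IAA changed with the day of collection. Between 5 and 10 days a change was called at 4467 of 38239 models (edgeR adjusted p below 0.05 for the difference of differences). Between 10 and 15 days it was called at 112 models, a number that ran from 2 to 215 when single libraries of 10 days were left out. That fewer models were called between the later days was not itself tested.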

How the results depend on the processing

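For BAP against IAA at 10 days, the counts of models called, called in each direction, at least 16-fold apart and beyond 2-fold stayed within 1.5 times their values under RLE factors, library totals, no filter, the 18 BAP and IAA libraries, the 6 libraries alone (11012 called, 4704 higher and 6308 lower with BAP), the replicate block and each left-out library, and so did those computed with DESeq2 (no test beyond 2-fold was run with it). Library totals turned the split between directions, as given above. The count of changes from 5 to 10 days ran from 3565 to 4203 without single libraries. The count of changes from 10 to 15 days was 66 with library totals, 65 without a filter, 27 with 18 libraries and 392 with DESeq2, and ran from 2 to 215 without single libraries, and the cause was not tested. The 4 named models kept direction and call under each alternative. Models with a read differed by -873 between BAP and IAA without equal depth, against -572.1 with it, and by -733.1 to -405.1 without single libraries. The shares of the 10 and 100 most abundant models differed by -0.501 to -0.208 and -1.68 to -1.21 percentage points without single libraries. Leaving out libraries for these 3 measures was added after seeing the data. The replicate block called 14151 models at 10 days and 145 changes from 10 to 15 days. Deviations of same-numbered BAP and IAA libraries correlated at 0.229, 0.0791 and 0.146, and each library correlated best with its own number, a hint from the data and not from the design. Models with few reads are limited by depth.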
